A study of Mus musculus with 4 samples.

Results

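The proteasome is the barrel-shaped protease that degrades ubiquitin-tagged proteins. Its 20S core is built of alpha rings, which gate the entrance, and beta rings, which hold the catalytic sites, and a 19S cap recognises, unfolds and feeds in substrates through a ring of ATPases. Core and cap genes are transcribed in nearly every cell, whereas Psmb8, Psmb9 and Psmb10 encode catalytic subunits that are induced by interferon and abundant in blood cells, where they replace Psmb5, Psmb6 and Psmb7 to form the immunoproteasome. The gene set described here holds the protein-coding RefSeq genes of the mm10 mouse assembly whose symbol starts with Psm, a letter from a to g and a number. This rule finds 51 of 21887 protein-coding genes on the chromosomes, spread over 16 chromosomes. It also catches Psmc3ip, a cofactor of meiotic recombination, and Psme3ip1, a protein that binds the activator Psme3. Neither is a subunit. Psme2b, a copy of the activator gene Psme2, is counted as well.

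The histone mark H3K27ac, found at promoters and enhancers in use, was mapped by sequencing after fanChIP, a native form of chromatin immunoprecipitation. Both analysed libraries came from CD45.2+ bone marrow cells of C57BL/6 mice. The control library has the genotype cKit(+) and the BN1 library the genotype cKit(+) BRD9-NUTM1, a leukaemia fusion of a chromatin remodelling subunit with a testis protein that binds an acetyltransferase. The extraction text names sorted BN1 cells with cKit, a receptor of blood progenitors, for both. The labels do not state age, the number of mice or how the fusion was introduced.

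There was 1 library per group, so no value below has a replicate error and no test was possible. Every difference describes 2 peak lists. The control-labelled list held 28343 peaks over 31.0 Mb and the BN1-labelled list 19148 peaks over 19.1 Mb, a 1.62-fold difference in covered length. How deeply each was sequenced is unknown. Peak names inside the files point the other way round (BRNU in the list of the control sample, BM in that of the BN1 sample), so every direction follows the sample titles only. Marker genes differed widely between the lists. Of 9 neutrophil markers, 6 had more bp under peaks in the BN1-labelled list and 3 had none in either list (Mpo, Elane and Ly6g). Of 6 B lymphoid markers 5 were longer there and 1 (Ms4a1) in the control-labelled list, and all of 7 monocyte and macrophage markers were longer in bp in the control-labelled list. Among these 7, Ly86 (2305 and 2068 bp) had a peak at a gene end in the BN1-labelled list only, and 5 had one in the control-labelled list only. Of 6 T and NK markers, 2 (Cd4 and Nkg7) were longer in the control-labelled list, 1 (Cd3g) in the BN1-labelled list, and 3 had no peak within 10 kb in either. Of 6 erythroid markers 5 were longer in the BN1-labelled list, each with an end region in that list only, and Gata1 had no peak within 10 kb in either. Among genes of the sorted cells, Ptprc, which encodes CD45, had a peak at a gene end in both lists, Cd34 (1601 and 0 bp) and Ly6a (6831 and 1948 bp) had one in the control-labelled list only, and Kit and Gata2 had no peak within 10 kb in either.

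The promoters that the results turn on are shown first, from RefSeq (GRCm38.p6, the assembly of mm10). Each runs 5′ to 3′ from 250 bases before to 50 after a transcript start. Psmb6 and Psmf1 are shown because their starts had a peak in 1 list only, Psmb5, Psmb8 and Psmb9 as a constitutive gene and immunoproteasome genes with peaks in both, and Psma6 because its peaks lay at an internal start. Capitals mark matches, on either strand, to CCAAT (the CCAAT box), CCGGAAG (a core of ETS factor sites), TGACNNNGC (a core of antioxidant response elements), GAAANNGAAA (a core of interferon response elements) or TTCNNNGAA (a STAT palindrome), which may overlap each other.
Psma6, chr12:55398575-55398874, plus strand: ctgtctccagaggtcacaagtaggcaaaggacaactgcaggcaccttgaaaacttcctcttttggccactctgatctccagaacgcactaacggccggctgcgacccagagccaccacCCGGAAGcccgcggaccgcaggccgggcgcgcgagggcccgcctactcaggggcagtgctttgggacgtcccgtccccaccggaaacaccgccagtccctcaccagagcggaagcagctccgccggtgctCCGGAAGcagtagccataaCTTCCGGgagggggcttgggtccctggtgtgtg
Psmb5, chr14:54617946-54618245, minus strand: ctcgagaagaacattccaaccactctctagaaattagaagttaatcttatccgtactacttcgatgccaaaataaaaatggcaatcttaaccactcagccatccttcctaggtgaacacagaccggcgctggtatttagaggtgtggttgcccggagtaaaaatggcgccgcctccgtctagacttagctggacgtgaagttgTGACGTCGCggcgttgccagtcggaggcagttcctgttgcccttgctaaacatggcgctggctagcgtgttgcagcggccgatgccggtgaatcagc
Psmb6, chr11:70525107-70525406, plus strand: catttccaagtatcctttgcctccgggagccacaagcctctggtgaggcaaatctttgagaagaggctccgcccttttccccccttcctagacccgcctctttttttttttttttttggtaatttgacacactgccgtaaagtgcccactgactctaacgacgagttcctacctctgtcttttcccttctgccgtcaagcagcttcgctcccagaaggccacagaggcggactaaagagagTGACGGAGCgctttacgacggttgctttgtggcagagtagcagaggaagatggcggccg
Psmb8, chr17:34197945-34198244, plus strand: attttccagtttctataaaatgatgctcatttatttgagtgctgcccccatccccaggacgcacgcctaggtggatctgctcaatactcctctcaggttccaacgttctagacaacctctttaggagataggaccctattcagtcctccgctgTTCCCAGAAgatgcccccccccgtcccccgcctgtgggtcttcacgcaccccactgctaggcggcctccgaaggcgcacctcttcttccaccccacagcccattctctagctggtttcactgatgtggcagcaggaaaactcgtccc
Psmb9, chr17:34187281-34187580, minus strand: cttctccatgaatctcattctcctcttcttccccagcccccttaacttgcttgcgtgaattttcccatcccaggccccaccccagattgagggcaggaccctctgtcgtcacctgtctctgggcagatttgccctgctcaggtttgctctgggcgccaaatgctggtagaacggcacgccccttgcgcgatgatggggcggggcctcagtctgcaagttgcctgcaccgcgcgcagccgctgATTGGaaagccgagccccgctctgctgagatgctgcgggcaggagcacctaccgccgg
Psmf1, chr2:151741261-151741560, minus strand: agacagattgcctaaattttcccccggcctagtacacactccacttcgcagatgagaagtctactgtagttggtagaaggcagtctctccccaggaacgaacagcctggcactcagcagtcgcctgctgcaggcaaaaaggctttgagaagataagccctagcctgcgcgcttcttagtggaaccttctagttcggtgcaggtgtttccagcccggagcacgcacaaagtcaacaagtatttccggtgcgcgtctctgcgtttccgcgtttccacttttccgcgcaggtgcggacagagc

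Psma6 carried CCGGAAG at 3 places in the window and Psmb5 and Psmb6 each 1 match to TGACNNNGC. Psmb8 held 1 TTCNNNGAA, Psmb9 held 1 CCAAT as its complement, and Psmf1 held none of the 5 motifs. A match describes letters only and is no evidence of binding. Over the 47 promoter windows of the 43 members with an entry, CCGGAAG occurred in 17 (36.2%), against 11.6% of 21263 windows of all protein-coding genes and 23.0% of the 8418 windows with a peak near the start in both lists. GAAANNGAAA occurred in 5 windows (10.6%, those of Psmb3, Psmd4, Psmd9, Psme1 and Psmg4) against 3.35% of all. The other motifs were found at close to the general share, CCAAT in 34.0% against 38.2%, TGACNNNGC in 12.8% against 12.98%, and TTCNNNGAA in 6.38% against 7.69%. Member windows had a median GC content of 57.3%, against 56.3% in all windows and 62.0% in those with a peak in both lists, and a median of 19 CpG dinucleotides against 13 and 23. Psmb1, Psmb2, Psmb7, Psma8, Psmc3, Psmd3, Psmd7 and Psmg2 had no entry.

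The first comparison asked whether proteasome genes carried H3K27ac in both libraries. An end region is a peak within 1000 bp of either end of a gene. Of the 51 genes, 45 (88.2%) carried an end region in each list, against 38.4% of all protein-coding genes. In the control-labelled list only there were 2 (Psmb6 and Psma8), against 6.62% of all genes, and in the BN1-labelled list only there were 0, against 3.23%. The remaining 4 (Psma6, Psmf1, Psmb11 and Psme2b) had none in either, as had 51.8% of all genes. Other housekeeping families showed similar shares. Of 89 cytosolic ribosomal protein genes 79 (88.8%) and of 78 mitochondrial ones 66 (84.6%) carried an end region in each list. These families also had 4 and 5 genes, respectively, in the control-labelled list only, and 0 and 1 in the BN1-labelled list only.

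**Figure D1:**
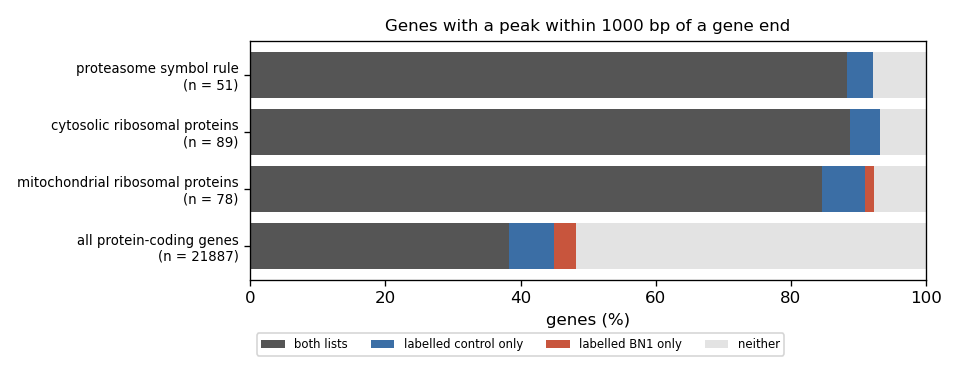
Share of genes (%) with a peak within 1000 bp of a gene end in both lists, in 1 list or in neither, for the proteasome genes, both ribosomal protein families and all protein-coding genes. The 3 families each have 84.6% to 88.8% in both lists, against 38.4% of all genes.

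Gene ends include the last exon, so transcript starts were also used, a measure added after the values were seen. Of the 43 members with a listed start, 39 had a peak within 1000 bp of one in both lists, against 40.6% of 17492 genes. Psmb6 had one in the control-labelled list only (6.21% of genes) and Psmf1 in the BN1-labelled list only (2.92%). Psma6, a subunit of the alpha ring, moved into the group with both. Neither of its gene ends had a peak within 1000 bp, but an internal start (the window printed above) lay under a 2238 bp peak of 16.6-fold enrichment in the control-labelled list and under one of 1544 bp at 19.2 in the BN1-labelled list. Fold enrichment is the authors' value of each peak over background and ranks peaks only within its own list. Psmb11, the thymus subunit, and Psme2b had a peak at no start in either list.

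Peaks at member starts sat just downstream of the start. At 150 bp downstream, 90.7% of the 43 starts were covered in the control-labelled list and 93.0% in the BN1-labelled list, against 43.7% and 40.4% of all genes. At 500 bp upstream the members' shares were 34.9% and 27.9%, against 25.7% and 20.7% of all genes. The strongest peak had its summit a median of 161 bp downstream (quartiles 116 and 212) over the 40 starts with a peak in the control-labelled list and 167 bp (quartiles 90.8 and 209) over the 40 in the BN1-labelled list. Over all genes the medians were 157 and 154.5 bp, with lower quartiles upstream of the start (-122 and -59.8 bp). Where a gene had several starts, the one with more covered length was taken, for members and all genes alike.

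**Figure D2:**
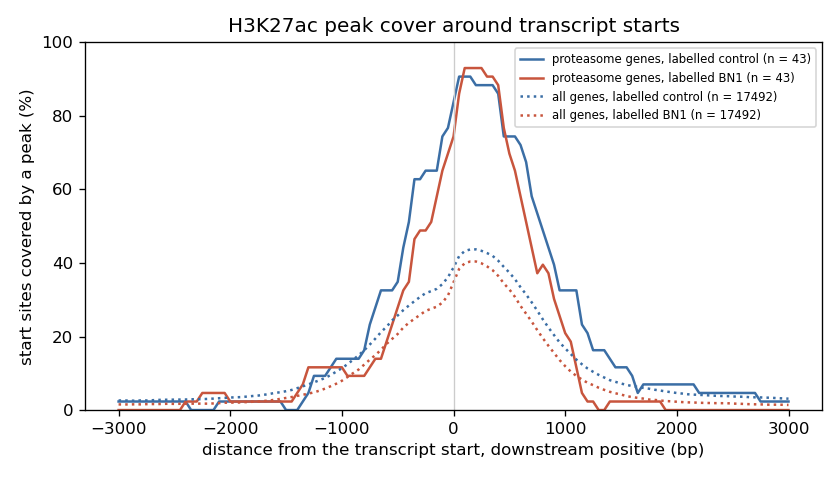
Share of transcript starts (%) covered by a peak against distance from the start in bp, downstream positive, for 43 proteasome genes (solid) and 17492 genes (dotted) in each list. Member curves peak near 90.7% and 93.0% downstream of the start. By 500 bp upstream they are at 34.9% and 27.9%, against 25.7% and 20.7% of all genes.

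Acetylated length is the number of bp under peaks from 10 kb before to 10 kb after a gene. Over the 51 members its median was 1575 bp in the control-labelled list and 1274 bp in the BN1-labelled list, against 809 and 429 bp over all genes. In bp, 36 members were longer in the control-labelled list, 14 in the BN1-labelled list, and Psme2b had none in either, against 9619 and 3983 of the 13606 genes with any region. Taken as BN1 minus control, the difference had a median of -249 bp, and -267 bp over the 50 members with any region, against -457 bp over the 13606 genes with any region. Per Mb of each list's covered length the sign turned, to 16.7 bp per Mb against 10.2, with 35 members longer in the BN1-labelled list and 15 in the control-labelled list, against 7916 and 5690 of all genes. For 29 members the lists differed by less than 500 bp. This count was not made over all genes, so it cannot be read as a trait particular to members. A length at least 2-fold greater was found in the control-labelled list for 8 members, or 15.7%, against 21.0% of all genes, and in the BN1-labelled list for 2, or 3.92%, against 6.55%. These all-gene shares (4607 and 1434 genes) are of 21887 genes, including those with no region, which cannot differ. Only 13606 genes had any region, against 50 of the 51 members, so the shares understate how common such differences were among acetylated genes.

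**Figure D3:**
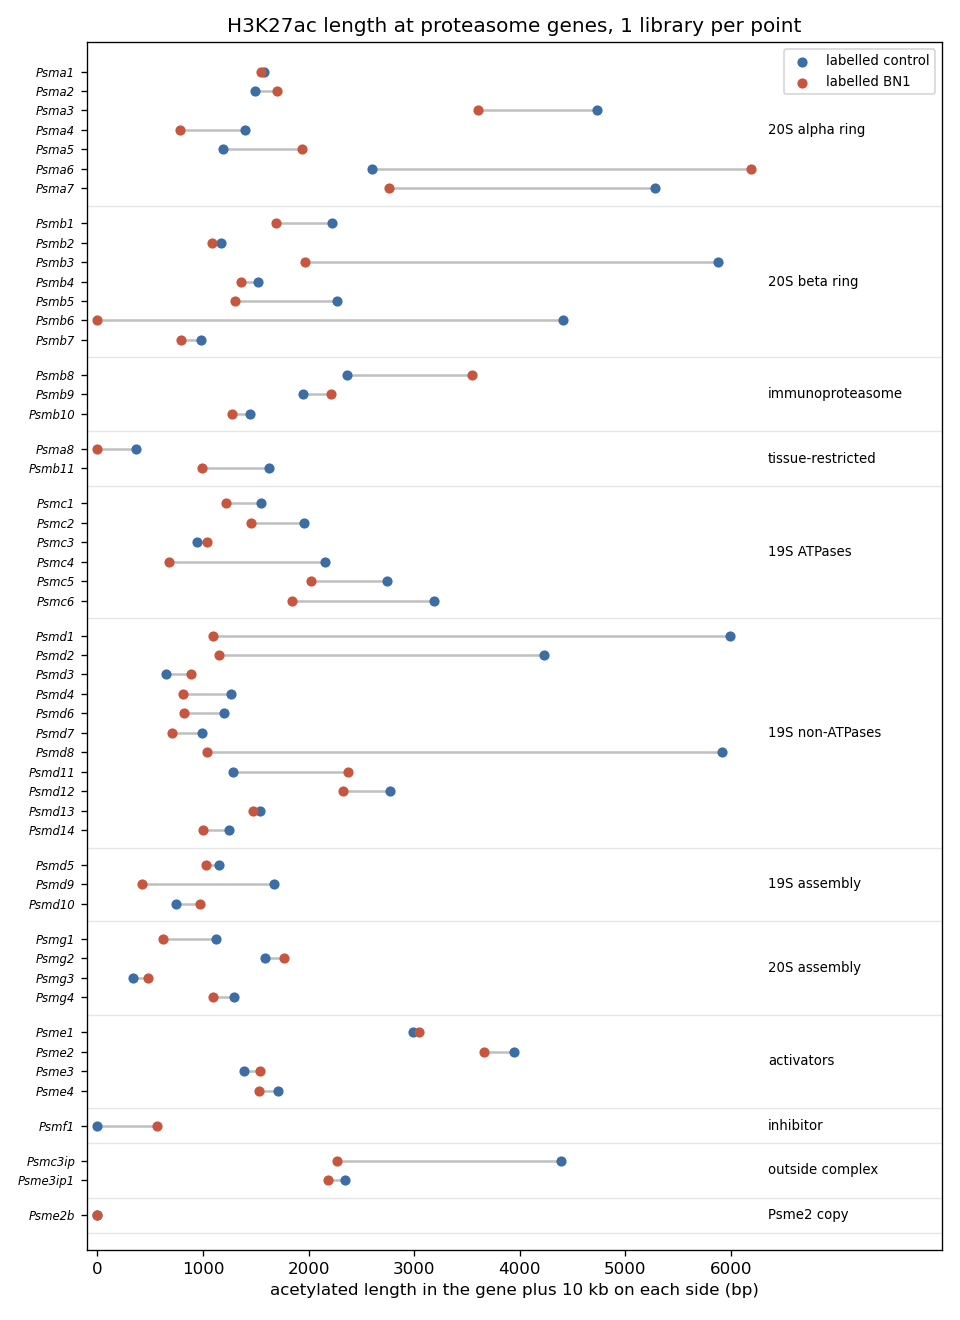
Acetylated length in bp of each gene plus 10 kb, 1 point per list, ordered by role in the proteasome. The points of 29 genes lie within 500 bp of each other, a count not made over all genes. Psmd1, Psmd8, Psmb6 and Psmb3 reach from 4411 to 5990 bp in the control-labelled list and Psma6 reaches 6189 bp in the BN1-labelled list.

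The peaks around these genes were largely the same ones. Member windows held 101 peaks of the control-labelled list, of which 68 (67.3%, 95% exact binomial interval 57.3 to 76.3, counting error only) overlapped a peak of the other list by at least 1 bp, against 41.2% of that whole list. They held 76 peaks of the BN1-labelled list, of which 68 (89.5%, interval 80.3 to 95.3) were shared, against 62.6%. Both intervals take peaks as independent, although some windows held several, such as 8 control peaks at Psmd1, and they are no test against the whole list. Shared peaks near members had median widths of 1160 and 1012 bp, against 1284 and 982 bp over all shared peaks of each list. Unshared ones were narrower, with medians of 380 bp (33 peaks) and 440 bp (8 peaks), against 502 and 454 bp in the whole lists. For 17 members the whole record was 1 peak in each list, overlapping the other, a count not made over all genes. At 15 of the 47 members with an end region, the strongest end peak also lay within 1000 bp of an end of another protein-coding gene, such as Tap1 at Psmb9, Mrpl32 at Psma2 and Sirt3 at Psmd13, so its acetylation cannot be assigned to 1 gene.

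In the alpha ring, 6 of 7 genes carried an end region in each list, all but Psma6. Psma7 had the strongest end peak of the ring, which Ss18l1 shares, at a fold enrichment of 38.4 in the control-labelled list (above 99.2% of that list) and 32.6 in the BN1-labelled list (94.4%). Psma3 had a higher BN1 peak, at 49.7 (98.1%) against 25.8 (96.1%) in the control-labelled list. It lay at a start inside the gene, away from the gene ends, and so was no end peak. The length of Psma7 was 5279 bp in the control-labelled list and 2765 bp in the BN1-labelled list. Psma6 had 2604 bp in the control-labelled list and 6189 bp in the BN1-labelled list, of which a single BN1 peak inside the gene, upstream of the internal start, made up 3375 bp. Psma5 had 1192 bp in the control-labelled list and 1941 bp in the BN1-labelled list. Both lists shared the peak at its start, and a second BN1 peak of 907 bp lay beyond the other end of the gene. Psma1, Psma2, Psma3 and Psma4 ran from 1398 to 4733 bp in the control-labelled list and from 778 to 3607 bp in the BN1-labelled list.

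In the constitutive beta ring, 6 of 7 genes carried an end region in each list and all 7 were longer in bp in the control-labelled list, 4 of them turning per Mb. Psmb5, the chymotrypsin-like subunit, had 2265 bp in the control-labelled list and 1305 bp in the BN1-labelled list. Psmb7, the trypsin-like subunit, had a single shared peak of 981 bp and 793 bp. Psmb3, a structural subunit, had 7 peaks over 5879 bp in the control-labelled list and 4 peaks over 1963 bp in the BN1-labelled list. The peak at its start was in both lists, and the longest control peak, of 2063 bp, had its summit upstream, at -3410 bp from the start, and no BN1 counterpart.

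Psmb6, the caspase-like subunit (chr11:70525324-70527858), stood out in that ring. In the control-labelled list it had 2 peaks, of 1454 bp at the start (fold enrichment 11.6) and 2957 bp across the far end (13.95), together 4411 bp. The list labelled BN1 had no peak in its window. This held under each of the peak thresholds tried, with 4411 and 0 bp for −log10 q thresholds of 5 and 10, for lists of equal length and for the top 10000 peaks of each. The gap reached beyond Psmb6. No BN1 peak lay over 108621 bp (chr11:70453984-70562604). Into this stretch reached 13 control peaks, of which 11 overlapped no BN1 peak, and the 2 others overlapped the BN1 peaks that border it. Pld2, which lies inside the stretch, had an end region in the control-labelled list as well. Of 4026 genes whose strongest control end peak had at least the fold enrichment of Psmb6, 87 had no BN1 peak within 10 kb.

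The inhibitor Psmf1, which encodes a protein that binds the core and blocks it in the test tube (chr2:151716062-151744199), showed the reverse with a single peak. The list labelled BN1 had 566 bp at its start, with the summit 209 bp downstream and a fold enrichment of 10.4 (above 68.7% of that list). The list labelled control had 0 bp, also under each of the same thresholds. Its region was sparse in both. The control gap around it spanned 390044 bp, with 2 BN1 peaks in it.

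**Figure D4:**
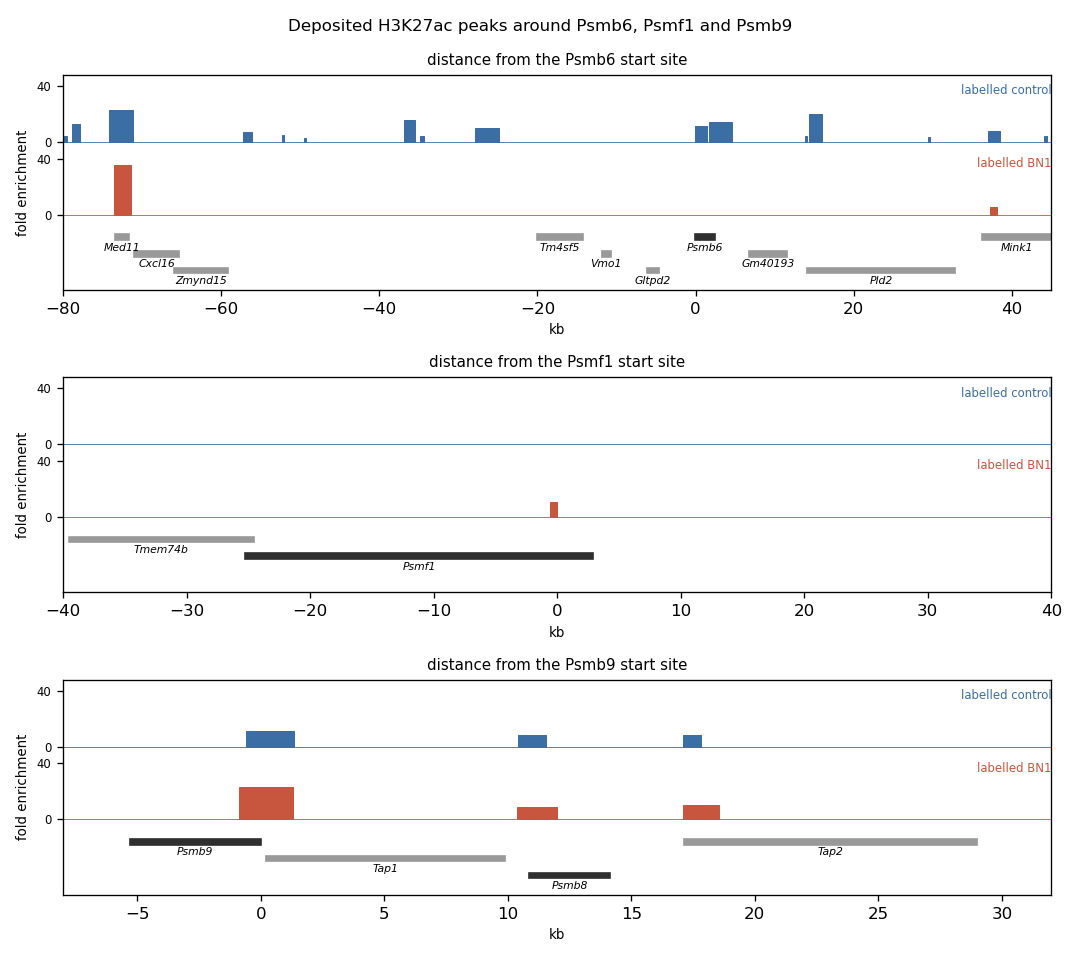
Deposited peaks of both lists around Psmb6, Psmf1 and Psmb9, by distance from the start site in kb along the chromosome, with bar height as fold enrichment within its own list and genes below. Psmb6 and Pld2 have peaks in the control-labelled list only, Psmf1 has 1 peak in the BN1-labelled list only, and the Psmb9, Psmb8 and Tap2 starts have a peak in both.

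The immunoproteasome genes all carried an end region in each list (3 of 3). Psmb9 (chr17:34182030-34187330) shares its start region with Tap1, a peptide transporter subunit of antigen presentation that is transcribed the other way. That region was 1 peak of 1949 bp in the control-labelled list, above 75.1% of its peaks at a fold enrichment of 11.4, and 1 peak of 2212 bp in the BN1-labelled list, above 89.4% at 23.4. The summit lay 141 bp inside Psmb9 in the former and outside it, at -228 bp and towards Tap1, in the latter. Psmb8 (chr17:34198195-34201454) had a start peak of 1156 bp at 8.40 in the control-labelled list and of 1615 bp at 8.83 in the BN1-labelled list. Over its window, which reaches the start peaks of Tap1 and Tap2, the length was 2365 bp and 3546 bp.

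Psmb10 (chr8:105935728-105938392), on another chromosome, had 1443 bp in 1 peak at 10.1 in the control-labelled list and 1274 bp in 1 peak at 8.64 in the BN1-labelled list. Psmb8 and Psmb9 were thus longer in the BN1-labelled list and Psmb10 in the control-labelled list. Per Mb, all 3 were longer in the BN1-labelled list, by 109.2, 52.9 and 20.1 bp per Mb, against 16.7 for the members' median. Their constitutive counterparts differed by -4.75 (Psmb5), -142.1 (Psmb6) and 9.85 bp per Mb (Psmb7). The value of Psmb8 includes the start peak of Tap2, of 735 bp in the control-labelled list and 1470 bp in the BN1-labelled list. On this scale 35 of the 51 members and 7916 of 13606 genes with any region were longer in the BN1-labelled list. With the top 10000 peaks of each list the start peak of Psmb8 was kept in the BN1-labelled list only, and lengths were 1209 and 3546 bp. Marker genes of B cells, neutrophils and macrophages also differed between the lists (given above), and their part in these values was not tested. In bulk chromatin, fewer cells of a type and less acetylation per cell cannot be told apart.

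With all peaks used, every 19S cap gene carried an end region in each list, against 38.4% of all genes. These were 6 ATPase genes, 11 non-ATPase genes and 3 assembly factor genes (Psmd5, Psmd9 and Psmd10, which chaperone the ATPase ring). At a −log10 q threshold of 10, Psmd10 kept one in the control-labelled list only and Psmd9 in neither. The top 10000 peaks gave the same for these genes, and Psmd2 and Psmd7 then kept one in the BN1-labelled list only. Among the ATPases, Psmc1 had a fold enrichment of 27.8 in the control-labelled list and 21.0 in the BN1-labelled list, and Psmc3 had 23.4 and 28.4. Psmc4 had 2153 bp in the control-labelled list and 680 bp in the BN1-labelled list, with 1 of its 3 control peaks shared. Psmc2, Psmc5 and Psmc6 had from 1953 to 3190 bp in the former and from 1454 to 2026 bp in the latter.

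Among the non-ATPases, 3 genes with long acetylated regions led the excess in bp in the control-labelled list. Per Mb, 8 of the 11 were longer in the BN1-labelled list and 3 in the control-labelled list. Psmd1, a large scaffold subunit, had 5990 bp in 8 peaks in the control-labelled list and 1095 bp in 1 peak in the BN1-labelled list. The start peak was shared (1607 and 1095 bp), and the 7 other control peaks, of 211 to 1894 bp, lay from 46.0 to 83.3 kb downstream of the start with no BN1 peak beneath them. Psmd8, a lid subunit, had 5913 bp in the control-labelled list and 1034 bp in the BN1-labelled list. Just downstream of its start lay a control peak of 2724 bp at 29.8 and a BN1 peak of 1034 bp at 7.98, above 97.6% and 58.4% of their lists. Psmd2, another scaffold subunit and ubiquitin receptor, had 4228 and 1148 bp, and its start peak was 938 bp and 313 bp.

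Of the 11 non-ATPases, 2 were longer in bp in the BN1-labelled list. Psmd11, a lid subunit, had 1287 bp in the control-labelled list and 2376 bp in the BN1-labelled list, through a BN1 peak of 1222 bp beyond the gene's end. Psmd3, another lid subunit, had 653 and 885 bp in its single shared peak. The start peaks of Psmd11 were alike in size (1287 and 1154 bp) and high in both lists, at 21.4 and 25.2. Psmd14, the deubiquitinase of the cap, had 1247 and 998 bp at 21.3 and 20.8, and Psmd4, a ubiquitin receptor, had 1269 and 812 bp. The other 4 non-ATPases (Psmd6, Psmd7, Psmd12 and Psmd13) had from 992 to 2775 bp in the control-labelled list and from 707 to 2329 bp in the BN1-labelled list. Of the assembly factors, Psmd9 had 1671 bp in 3 peaks in the control-labelled list and 420 bp in 1 peak in the BN1-labelled list. Its strongest end peaks were 878 and 420 bp wide and of low fold enrichment (4.64 and 6.28).

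The 4 core assembly chaperones, Psmg1 to Psmg4, carried an end region in each list. Psmg2 had the strongest end peak of all 51 genes in both, at 59.4 in the control-labelled list (above 99.9% of peaks) and 52.9 in the BN1-labelled list (98.5%), over 1583 and 1768 bp that Cep76 shares. Psmg3 had the shortest lengths of the genes with a peak in both except Psmd9 in the BN1-labelled list, at 341 bp and 480 bp. The 4 activator genes differed by a median of -61 bp, while per Mb all 4 were longer in the BN1-labelled list, by a median of 49.4 bp per Mb against 16.7 over the members. Psme1 (62.8 bp per Mb) and Psme2 (64.2) stood above Psmb9 on that scale. Psme1 and Psme2, the interferon-inducible pair that opens the core gate, had 2991 and 3949 bp in the control-labelled list and 3045 and 3662 bp in the BN1-labelled list, partly through the same peaks, since their windows overlap. Psme3, the nuclear activator, had 1385 and 1541 bp, and Psme4, the large activator, 1710 and 1534 bp.

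Over the members with an end region, the strongest end peak stood at a median rank above 80.1% of peaks in the control-labelled list (47 genes) and 69.8% in the BN1-labelled list (45 genes), against 77.1% and 75.02% over all genes with an end region. These peaks were narrower than those of other genes, with a median of 1171 against 1361 bp in the control-labelled list and 1034 against 1172 bp in the BN1-labelled list. Cytosolic ribosomal protein genes ranked at 87.0% and 79.6%, with widths of 1753 and 1301 bp, and mitochondrial ones at 71.3% and 67.4%, with widths of 1020 and 825 bp. In the lower 50% of their list were 5 members in the control-labelled list (Psmb3, Psma8, Psmd9, Psmg1 and Psmg3) and 7 in the BN1-labelled list (Psmb3, Psmc2, Psmd7, Psmd9, Psmd10, Psmg3 and Psme1). The upper 50% held 89.4% and 84.4% of members with an end region, against 81.8% and 78.2% of all such genes.

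**Figure D5:**
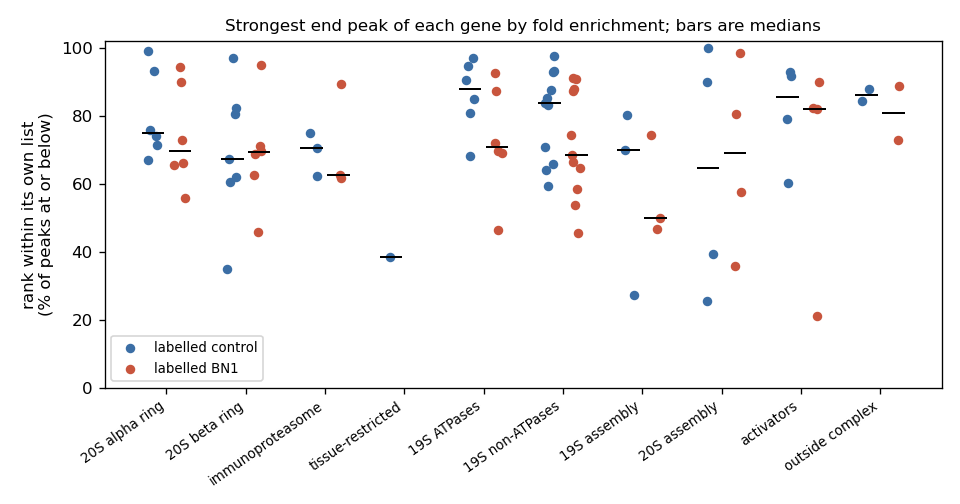
Rank (%) of each gene's strongest end peak by fold enrichment within its own list, by role, 1 point per gene, with bars at medians. Most points lie above 50%, as do 81.8% and 78.2% of all genes with an end region. The members' median is 80.1% in the control-labelled list and 69.8% in the BN1-labelled list.

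No tissue-restricted gene had end regions in both lists. Psma8, the testis subunit, had 1 peak of 366 bp at 5.41 in the control-labelled list and none in the BN1-labelled list, and that peak was lost at a −log10 q threshold of 10 and among the top 10000 peaks. Psmb11 had 1622 and 990 bp in its window, all of it in peaks of the neighbouring Psmb5. Psmc3ip had 4387 and 2266 bp and Psme3ip1 had 2342 and 2188 bp, both with an end region in both lists.

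Of 29 further genes of the pathway listed for comparison, 28 were matched (Paaf1 was not) and 26 carried an end region in each list. Uba1, the main ubiquitin-activating enzyme, had one in the control-labelled list only and Ecpas, a proteasome scaffold, in neither, but both had a peak at a transcript start in both lists. Lengths in bp were greater in the control-labelled list for 20 and in the BN1-labelled list for 8, and per Mb the counts turned to 8 and 20. Nfe2l1, the factor that raises proteasome transcription when proteasomes are inhibited, had 7988 bp in the control-labelled list and 1723 bp in the BN1-labelled list. Nfe2l2, the related antioxidant response factor, had 14321 and 6708 bp. Pomp, the maturation factor of the core, had 2099 and 881 bp. Ublcp1, a phosphatase of the proteasome, was the single gene at least 2-fold longer in the BN1-labelled list, with 4336 against 2127 bp.

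All of the 8 antigen presentation and interferon genes carried an end region in each list. Tap1 had 3840 bp in the control-labelled list and 5297 bp in the BN1-labelled list, Tap2 had 1891 and 3085 bp, and Nlrc5, the class I transactivator, had 3696 and 3931 bp. B2m, the light chain of class I molecules, had 4111 and 2629 bp, and Irf1, an interferon response factor, had 4330 and 3572 bp. In all, 5 were longer in bp in the BN1-labelled list and 3 in the control-labelled list, and the median of the 8 was 66.2 bp per Mb, against 10.2 over all genes with any region. Tap1 and Tap2 share peaks with the windows of Psmb8 and Psmb9 and are not separate observations.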

How the data were processed

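Each ChIP library was read from 1 deposited peak list without a header, and the 2 input libraries were not analysed here. Per the submitters' processing notes, which give no role or order, the build was mm10 (GRCm38) and the tools included MACS3 3.0.1, Bowtie2 2.5.4, deepTools 3.5.1 and Picard 3.2.0. How inputs were used, whether samples were pooled and the calling threshold: not given in the sources used here. The deposited columns hold the authors' fold enrichment at the summit (a linear ratio), −log10 p, −log10 q and a score within 1 unit of 10 times the −log10 q. The summit offset was deposited in bp. The lowest −log10 q was 1.32 in the control-labelled list and 1.30 in the BN1-labelled list.

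Gene ends were taken from RefSeq (GRCm38.p6), and transcript starts with strand from a RefSeq promoter table. The table used here gives no exons. Peaks within a list did not overlap. With 1 library per group, no test was run, and depth, which is unknown, limits which weak regions could be called. The members and lists were chosen with earlier results of these data known. Named with all values were the immunoproteasome genes and their counterparts, members with an end region in 1 list or none, the 5 members per direction with the largest difference in bp, and the strongest end peak. Other members named were chosen after their values were seen. S6 kinase and similar symbols were left out of the ribosomal set. Coverage counting was checked on simulated peaks. The software was Python 3.11.15 with numpy 2.4.6, pandas 2.3.3 and matplotlib 3.10.9. Alternatives were other peak thresholds, windows, flanks, overlaps and gene sets, and, added after the values were seen, transcript starts.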

Additional observations from a re-analysis of the deposited data

How the results depend on the processing

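The number of members with an end region in both lists stayed between 34 and 45 under all alternatives, and Psmb6 and Psmf1 kept their side under each peak threshold. The share of all genes with one in both lists also fell, from 38.4% with all peaks to 26.9% with the top 10000. Of 70 alternative values, 46 kept their direction and stayed within 1.5 times the reported value or, for shares, within its interval. Per Mb of covered length the median difference reversed to 16.7 bp per Mb, with 15 members longer in the control-labelled list and 35 in the BN1-labelled list. This follows from the unequal covered lengths. In bp the median was -122 for a −log10 q threshold of 10, -29 for the top 10000 peaks, -86 without flanks and -620 with 50 kb flanks. End regions in the BN1-labelled list only numbered 1 for a −log10 q threshold of 5, 2 for 10, 2 for lists of equal length, 6 for the top 10000 peaks, 1 with 2500 bp windows and 1 at transcript starts. The all-gene share in that list only rose as well, from 3.23% with all peaks to 7.54% for the top 10000. It was 4.15% for a −log10 q threshold of 10 and 4.91% for lists of equal length. Of the members, in the control-labelled list only there was 1 without Psmc3ip, Psma8 and Psmb11 and 1 at transcript starts. In neither list there were 9 for the top 10000 peaks and 2 at transcript starts. Shared control peaks were 77.8% for a −log10 q threshold of 5, 85.1% for 10, 83.8% with equal lists, 92.3% for the top 10000, 79.0% without flanks and 56.4% where 0.5 of the peak had to overlap. Shared BN1 peaks were 79.3% for the top 10000. Apart from the scaling, the cause was not tested. No paired analysis was possible because each group has 1 library and no result comes from a test. Weak regions near the calling threshold are limited by an unknown depth.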
